A study of Mus musculus with 12 samples.

Results

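The bore of the LG-HMF magnet, a superconducting magnet whose strong field has a steep gradient, offers 2 places where the gradient pulls on the cells and 1 place where it does not, and the comparison described here sets the first 2 against the last. In the μ-g group the magnetic force at 12 T opposed gravity, in the 2-g group the force at 12 T added to gravity, and in the 1-g group the cells stood at the centre of the bore, at 16 T with no magnetic force. All cells were MLO-Y4, an established mouse cell line with osteocyte-like features, and all were kept for 48 h in wells within a plate carried by an object holder. A control group was incubated for the same 48 h outside the magnet, in the geomagnetic field. Each group had 3 Affymetrix Mouse Gene 1.0 ST arrays. The means compared are those of 9 of the 12 arrays of the series: 6 at 12 T (μ-g and 2-g, with equal weight) and 3 at 16 T (1-g). The 3 control arrays also enter the fit, where they bear on the spread behind each SE and p-value. All 19938 genes that the array annotation names by 1 symbol were compared, without regard to their values. A positive log2 difference below means a higher level at 12 T. The field at 12 T or 16 T, the presence of a gradient and the place in the bore change together between these groups and cannot be told apart. The labels call the 3 arrays of a group biological replicates, without saying what sets them apart (culture, passage or magnet run), and the p-values measure the spread between these samples.

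Water and most molecules of a cell are diamagnetic and are pushed away from a strong field, and the push depends on the product of field and gradient, so that it is absent at the centre where the field itself is strongest. Osteocytes are the cells enclosed in bone matrix that sense load, and they live at low oxygen. Many of the genes that differed most in these arrays belong to the response to low oxygen. In that response the transcription factor HIF-1 is made continuously, is hydroxylated by the oxygen-dependent EGLN enzymes and is then degraded, and when oxygen is short it accumulates and switches on glucose uptake, glycolysis, lactate export, control of pH and the EGLN genes themselves.

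The 12 arrays were alike. The array medians lay between 7.04 and 7.12 on the log2 scale, and correlations over all transcript clusters were 0.996 to 0.998 within groups and 0.995 to 0.998 between groups. Probes of different genes differ in brightness, so a gene's place among all gene levels is a rough description and no measure of its amount. Of 19 osteocyte and osteoblast markers 8 lay above the median level of all genes, among them Pdpn, Gja1 and Capg. The other 11 lay below it, among them Dmp1, Mepe, Phex and Sost. Of 16 macrophage markers 14 lay below that median, as did 12 of 13 endothelial, 8 of 14 osteoclast and 5 of 12 adipocyte markers.

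Against the 16 T centre, 4 genes rose at the 12 T positions in limma's test (adjusted p under 0.05, 0.0201% of the genes compared) and 0 fell. These were Stc1, which encodes the secreted hormone stanniocalcin 1, Slc16a3, which encodes the lactate exporter MCT4, Gys1, the glycogen synthase of muscle and most other tissues, and Mxi1, which encodes a repressor that opposes MYC. At an unadjusted p under 0.05, limma gave 504 genes higher and 742 lower (6.25% of the genes). The rise of all 4 genes lay in the 2-g arrays, while the μ-g arrays stood at the level of 1-g.

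For Stc1, the log2 values were 7.32, 7.50 and 7.29 in μ-g, 9.66, 9.74 and 9.59 in 2-g, and 7.38, 7.34 and 7.21 in 1-g. The 2-g arrays were all above 1-g, and the μ-g arrays overlapped it. The mean of both positions exceeded 1-g by 1.21 on the log2 scale (SE 0.13, 2.31-fold, limma adjusted p = 0.0194), as the average of 0.06 at μ-g (SE 0.15) and 2.36 at 2-g (SE 0.15, 5.13-fold). Slc16a3 had values of 7.23, 7.35 and 7.12 in μ-g, 8.29, 8.19 and 8.12 in 2-g, and 7.06, 7.33 and 6.99 in 1-g. Here, too, the μ-g and 1-g arrays overlapped while each 2-g array exceeded both. The difference of the mean was 0.59 (SE 0.08, 1.51-fold, limma adjusted p = 0.0455), with 0.11 at μ-g and 1.07 at 2-g.

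Gys1 stood at 11.03, 10.91 and 10.92 in μ-g, 12.11, 12.12 and 12.01 in 2-g, and 11.10, 10.92 and 11.00 in 1-g. Its 12 T mean was 0.51 above 1-g (SE 0.06, limma adjusted p = 0.0429), made of -0.05 at μ-g and 1.08 at 2-g. Mxi1 read 8.83, 8.77 and 8.68 in μ-g, 9.56, 9.76 and 9.68 in 2-g, and 8.83, 8.81 and 8.82 in 1-g. The difference of its mean was 0.39 (SE 0.05, limma adjusted p = 0.0432), with -0.06 at μ-g and 0.84 at 2-g. For both genes the μ-g mean thus lay slightly below that of 1-g, and the 2-g arrays lay apart from all other arrays. In control the 4 genes averaged 8.07 for Stc1, 7.47 for Slc16a3, 11.44 for Gys1 and 8.99 for Mxi1, in each case between 1-g and 2-g. The count of 4 depended on single arrays. It was 0 without any 1 of the 3 μ-g arrays, without 1-g replicate 1 or 3, or without 2-g replicate 2 or 3, it was 1 without 1-g replicate 2 and 2 without 2-g replicate 1, and it was 6, 24 and 35 without control replicate 1, 2 and 3. The differences themselves moved little over these fits, from 1.16 to 1.24 for Stc1, 0.52 to 0.69 for Slc16a3, 0.47 to 0.56 for Gys1 and 0.37 to 0.42 for Mxi1.

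**Figure D1:**
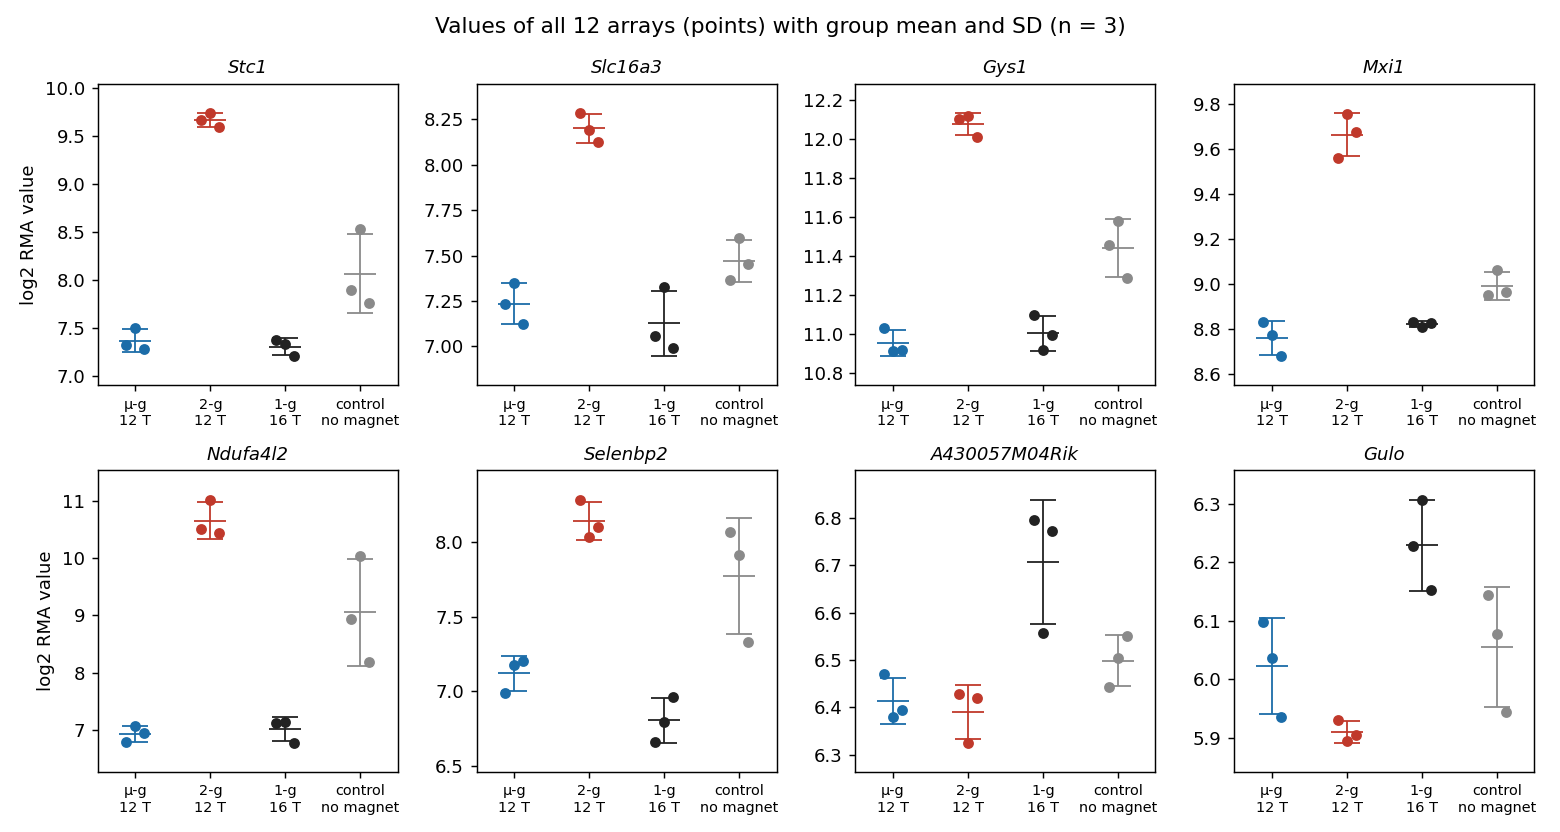
Each panel plots the log2 RMA value (y axis) of 1 gene in the 4 groups (x axis), with a point for each array and a bar for the group mean and its SD (n = 3). In the upper panels and for Ndufa4l2 the 2-g arrays lie apart from both other magnet groups, Selenbp2 is above 1-g at both positions, and A430057M04Rik and Gulo are below 1-g at both.

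The promoters of the called genes Slc16a3, Mxi1 and Gys1 and of Selenbp2, a gene that was above 1-g at both positions (below), are shown. For Stc1, also called, no promoter sequence was found under its symbol, so it was not examined. The promoters are given because genes that move together in the low-oxygen response often carry the core of the HIF binding element, ACGTG, near their start. The windows run from 250 bases before to 50 bases after the gene's start, are given 5′ to 3′ on the strand of the gene, and were read from RefSeq sequence (GRCm38.p6). Capitals mark ACGTG, or CACGT where it lies on the other strand. Slc16a3 (chr11:120948817-120949116, plus strand) holds it 27 and 14 bases before the start, Mxi1 (chr19:53329163-53329462, plus strand) 66 bases before the start, and Selenbp2 (chr3:94693323-94693622, plus strand) 206 bases before the start on the other strand. Gys1 (chr7:45434589-45434888, plus strand) holds it nowhere in the window. Mxi1 has 3 windows, 2 of them with the motif, of which 1 is shown, and the others have 1 window each.
Slc16a3: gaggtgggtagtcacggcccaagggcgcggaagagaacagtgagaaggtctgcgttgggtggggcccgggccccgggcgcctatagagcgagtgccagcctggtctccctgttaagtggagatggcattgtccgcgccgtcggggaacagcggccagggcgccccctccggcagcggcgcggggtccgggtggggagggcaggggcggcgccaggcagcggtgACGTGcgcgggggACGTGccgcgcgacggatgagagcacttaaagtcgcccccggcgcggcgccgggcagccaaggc
Mxi1: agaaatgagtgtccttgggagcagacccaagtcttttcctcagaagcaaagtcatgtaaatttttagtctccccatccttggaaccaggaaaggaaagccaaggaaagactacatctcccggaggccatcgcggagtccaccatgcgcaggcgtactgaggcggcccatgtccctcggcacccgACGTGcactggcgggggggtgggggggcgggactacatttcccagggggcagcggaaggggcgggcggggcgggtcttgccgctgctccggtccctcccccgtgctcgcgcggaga
Gys1: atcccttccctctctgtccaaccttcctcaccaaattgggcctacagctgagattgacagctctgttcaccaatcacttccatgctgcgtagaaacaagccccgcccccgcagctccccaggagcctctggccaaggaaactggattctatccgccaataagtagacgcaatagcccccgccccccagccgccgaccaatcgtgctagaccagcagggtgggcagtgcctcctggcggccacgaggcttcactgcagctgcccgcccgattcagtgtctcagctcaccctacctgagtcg
Selenbp2: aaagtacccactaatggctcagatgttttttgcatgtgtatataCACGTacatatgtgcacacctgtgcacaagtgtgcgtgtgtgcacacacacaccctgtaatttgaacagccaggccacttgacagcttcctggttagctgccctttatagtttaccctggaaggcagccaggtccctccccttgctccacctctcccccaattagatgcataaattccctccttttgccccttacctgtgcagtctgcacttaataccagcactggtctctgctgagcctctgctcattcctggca
Of all 32851 such windows in RefSeq, 19.6% hold the motif on either strand, a count that includes the E-box CACGTG. Of the 19938 genes compared, 15614 had a window under their symbol, and 21.6% of their windows held it. A match describes the letters only, and its absence says nothing of what binds there.

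The arrays bearing the same replicate number varied together across the magnet groups, and a fit with that number as a block called 94 genes in the 12 T positions v.s. 1-g (0.471% of the genes compared), 77 of them higher (0.386%) and 17 lower (0.0853%). All adjusted p-values in the following paragraphs that are named as blocked come from this limma fit. The count fell to 5, 10 and 32 when the arrays of replicate number 1, 2 and 3 were left out. The median difference of the 77 genes was 0.41 for the mean of both positions, -0.03 for μ-g and 0.85 for 2-g. A μ-g mean within 0.2 of 1-g was found in 74 of the 77, as in 19828 of all 19938 genes, so it does not set them apart. In 75 of the 77 the control mean lay between 1-g and 2-g, beside 6717 of all 19938 genes. The 77 were called on these same 1-g and 2-g arrays, so the interval between them is wide. A wide interval holds the control mean more readily, and these shares cannot be compared on equal terms. The windows of the 77 held ACGTG in 33 of 75 (44%, over the 60 genes with a window), and those of the lowered genes in 3 of 14 (21.4%).

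Several of the genes called with the block belong to mitochondria or to the control of pH, among them Ndufa4l2, Car9 and Ak4, whose mean differences were the 3 largest of the 94. Ndufa4l2, a mitochondrial protein that dampens complex I, had values of 6.79, 7.07 and 6.94 in μ-g, 10.51, 11.02 and 10.44 in 2-g and 7.12, 7.14 and 6.78 in 1-g. The μ-g and 1-g arrays overlapped, and the 2-g arrays were 3.64 above 1-g (12.5-fold), so the mean difference came to 1.78 (SE 0.30, limma adjusted p = 0.0803, blocked 0.00777). Car9, a carbonic anhydrase of the cell surface, differed by 1.52 (blocked adjusted p = 0.0119), from -0.05 at μ-g and 3.09 at 2-g. Bnip3, a receptor for the removal of mitochondria, differed by 1.10 (blocked 0.00777), and Pdk1, the kinase that shuts pyruvate out of mitochondria, by 1.08 (blocked 0.0185). Higd1a and Fam162a, also mitochondrial, differed by 0.85 and 0.82, and Cox7a1 and Cox4i2, tissue-specific subunits of cytochrome c oxidase, by 0.78 and 0.50. All of these passed at the blocked fit. Among 32 general genes of the respiratory chain, 0 were called with limma with or without the block, and the median was -0.05. At an unadjusted p under 0.05 (limma) 0 of them were higher and 2 lower (6.25%), the same share as over all genes (6.25%).

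Other genes called higher with the block encode oxygen-using hydroxylases and demethylases. They were picked from the called genes by function, and no list of such enzymes was counted. Egln1 and Egln3, the enzymes that mark HIF-1 for degradation, differed by 0.80 and 0.62 (blocked adjusted p = 0.0119 and 0.00878), and their shifts at μ-g were -0.0007 and -0.01 against 1.60 and 1.24 at 2-g. P4ha1 and P4ha2, which hydroxylate prolines of collagen, differed by 0.51 and 0.55, and Plod1 and Plod2, which hydroxylate its lysines, by 0.35 and 0.44. Kdm3a and Kdm4b, histone demethylases, differed by 0.36 and 0.41. Alkbh5, which removes methyl groups from RNA, differed by 0.25 (blocked adjusted p = 0.0353), with values of 11.02 in every μ-g array, 11.50, 11.48 and 11.48 in 2-g and 11.00 in every 1-g array. Its 6 arrays at 12 T were all above the 3 of 1-g, but at μ-g by 0.02 only.

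Sugar metabolism was covered by a list. Of 21 glycolysis genes, 1 was called (Slc16a3), 8 were higher and 0 lower with the block, 14 were higher and 0 lower at an unadjusted p under 0.05 (2.53% and 3.72% of all genes), and the list's median was 0.25, from -0.04 at μ-g and 0.53 at 2-g, beside -0.01 for all genes. Aldoc, Eno2, Pfkl and Pgk1, which encode aldolase, enolase, phosphofructokinase and phosphoglycerate kinase, differed by 0.80, 0.68, 0.68 and 0.39. The lactate dehydrogenase gene Ldha differed by 0.25 (blocked adjusted p = 0.0573) and the glucose transporter gene Slc2a1 by 0.30 (blocked 0.0724), neither past the threshold. Beside Gys1, which builds glycogen, Pygl, which breaks it down, and Pgm1, which links glycogen with glycolysis, differed by 0.39 and 0.50 (blocked adjusted p = 0.0301 and 0.0227).

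Of 38 genes in the list of the low-oxygen response, which holds genes that the study itself picked on these samples and so is not independent evidence of direction, 2 were called (Stc1 and Mxi1), 28 were higher and 0 lower with the block (0.386% and 0.0853% of all genes), and 32 were higher and 1 lower at an unadjusted p under 0.05 (2.53% and 3.72% of all genes). The median of the list was 0.55, from -0.03 at μ-g and 1.10 at 2-g. Among its ligands and receptors, Apln, the ligand of the apelin receptor, differed by 0.90, the vasodilator peptide gene Adm by 0.78, the receptor gene Gpr35 by 0.88 and the receptor adaptor Arrb1 by 0.85 (blocked adjusted p = 0.00569, 0.00569, 0.00569 and 0.00777). Of the subunits of the factor, Hif1a differed by -0.05 (SE 0.04, limma adjusted p = 0.949) and its relative Epas1 by -0.22 (limma adjusted p = 0.245, blocked 0.0942), the latter with 0.15 at μ-g and -0.58 at 2-g. Vegfa, the angiogenic growth factor and a classical target, differed by 0.03 (SE 0.04). Of the 12 genes tested by PCR in the study, which were chosen on these samples, 10 were higher and 1 (Gpr84) lower with the block, and the other, Car12, differed by 0.43 (blocked adjusted p = 0.401).

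**Figure D2:**
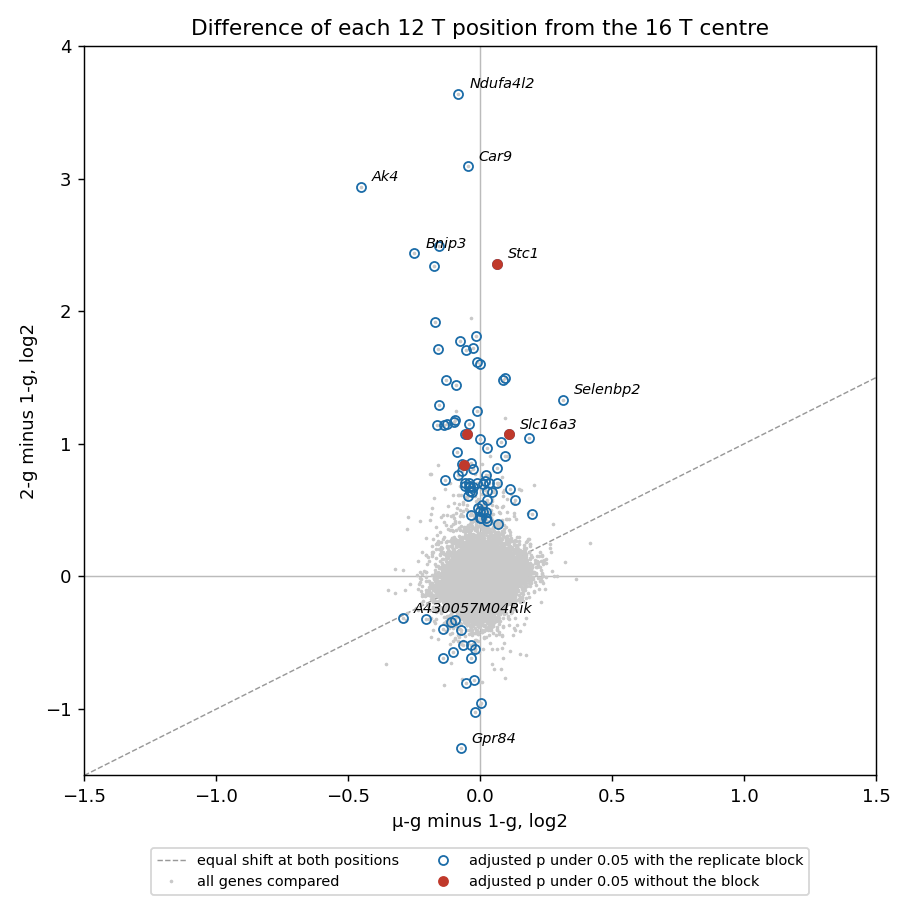
Each point is 1 of the 19938 genes, with the log2 difference of μ-g from 1-g on the x axis and that of 2-g from 1-g on the y axis, and the axes have different scales. Open circles are the 94 genes called with the replicate block and filled circles the 4 called without it. Nearly all lie along the vertical line at 0 and away from the dashed line of equal shifts.

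The positions were also tested apart. In μ-g v.s. 1-g limma called 0 genes, with or without the block, while 273 genes were higher and 187 lower at an unadjusted p under 0.05 (2.31% of the genes). In 2-g v.s. 1-g it called 251 genes higher and 200 lower (2.26%), and 1510 with the block (7.57%). Both comparisons share the 1-g arrays. The test of the difference between the positions, μ-g v.s. 2-g, uses no 1-g array, and it called 574 genes (2.88%), 276 higher and 298 lower at μ-g, and 1831 with the block (9.18%). Of the 574, the mean against 1-g called 4 (0.697%). The positions lay on opposite sides of 1-g in 428 of the 574, beside 8622 of all 19938 genes. Being chosen for a difference between the positions makes opposite sides more likely by itself. The median size of the shift over the 574 was 0.05 at μ-g, 0.33 at 2-g and 0.16 for their mean. Of the 94 genes called with the block, 92 also differed between μ-g and 2-g in the blocked fit, the exceptions being A430057M04Rik and Gulo.

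In some genes the positions lay on opposite sides of 1-g, so that the shifts partly cancelled in their mean. They were chosen for this after their values were seen. Ak4, a mitochondrial adenylate kinase, had values of 7.96, 8.39 and 7.55 in μ-g, 11.42, 11.40 and 11.25 in 2-g and 8.62, 8.61 and 8.02 in 1-g. It was 0.45 lower at μ-g (SE 0.28) and 2.94 higher at 2-g, with a mean of 1.24 (blocked adjusted p = 0.00688). The μ-g and 1-g arrays overlapped, the 2-g arrays did not overlap with them. Bnip3 had -0.25 and 2.44. Aldoart1, an aldolase gene of the testis, had -0.27 (SE 0.12) and 0.45, and Tnfsf9, the ligand of the costimulatory receptor 4-1BB, had -0.19 and 0.77, with means of 0.09 and 0.29 that passed neither fit. The aldolase gene Aldoa, at 13.08 in 1-g beside 7.01 for Aldoart1, had -0.09 and 0.51. Whether the probes of Aldoart1 pick up Aldoa transcripts was not tested. For Mir125b-1, a microRNA gene, the shifts were -0.23 and 0.42, and the mean of 0.10 turned to -0.06 when 1-g replicate 1 was left out.

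In a small set of genes every array at 12 T lay on the same side of every 1-g array. With so few arrays, some genes are ordered this way without any effect, and how many was not estimated. The counts that follow are therefore no evidence of a shift at both positions. All 6 arrays at 12 T lay above all 3 arrays of 1-g in 104 genes (0.522%) and below them in 174 genes (0.873%), with median differences of 0.11 and -0.12. None of these 278 (1.39%) was called by limma without the block (61 of the higher and 122 of the lower had an unadjusted p under 0.05, which is 0.306% and 0.612% of all genes, 0.918% together), and 4 were called with it, Selenbp2 and Alkbh5 higher and A430057M04Rik and Gulo lower. Of the 278, 7 (2.52%) differed between μ-g and 2-g at adjusted p under 0.05 (limma), close to the 2.88% of all genes.

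Selenbp2, a selenium-binding protein, had the largest such rise. Its values were 6.99, 7.17 and 7.20 in μ-g, 8.28, 8.04 and 8.10 in 2-g, 6.66, 6.79 and 6.96 in 1-g, and 8.07, 7.91 and 7.33 in control. The magnet groups did not overlap, although the nearest μ-g and 1-g arrays were close, and the mean difference was 0.82 (SE 0.13, 1.77-fold, limma adjusted p = 0.0772, blocked 0.0345), from 0.32 at μ-g (SE 0.16) and 1.33 at 2-g. Selenbp1, its close paralog, differed by 0.80 (blocked adjusted p = 0.0349), but with -0.01 at μ-g and 1.62 at 2-g. The probes of such near-identical genes can pick up each other's transcripts, and the part of this in either value was not tested.

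Ifnz, an interferon gene, had a mean difference of 0.40 (blocked adjusted p = 0.0872), from 0.16 at μ-g and 0.65 at 2-g. The other genes named for the largest shifts upward, apart from Alkbh5, had shifts nearer in size at both positions. That both shifts point the same way was fixed by how the genes were chosen. Dppa3, a gene of germ cells and the early embryo, had 0.42 at μ-g and 0.25 at 2-g, Gm13092 0.26 and 0.24, the cytokine gene Il17c 0.26 and 0.21, the somatostatin receptor gene Sstr3 0.27 and 0.19, the connexin gene Gjb5 0.19 and 0.23, Gm10648 0.22 and 0.18, and the mucin gene Muc1 0.17 and 0.24. All of these stand below the median gene level of 7.50 in 1-g, except Ifnz at 8.43, and their adjusted p-values without the block lay between 0.282 and 0.579 by limma.

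Among the genes chosen for shifts downward at both positions, some had shifts of like size. A430057M04Rik read 6.47, 6.38 and 6.39 in μ-g, 6.43, 6.33 and 6.42 in 2-g and 6.79, 6.56 and 6.77 in 1-g. It was 0.29 lower at μ-g and 0.32 lower at 2-g, with a mean of -0.30 (SE 0.06, limma adjusted p = 0.115, blocked 0.0289), and μ-g and 2-g overlapped with each other but not with 1-g. Gulo, the last enzyme of vitamin C synthesis, read 6.10, 6.04 and 5.93 in μ-g, 5.93, 5.90 and 5.90 in 2-g and 6.23, 6.31 and 6.15 in 1-g, with a mean of -0.26 (SE 0.05, limma adjusted p = 0.171, blocked 0.0298). These are low levels for the array, and the control mean, at 6.50 for A430057M04Rik and 6.05 for Gulo, was below 1-g for both.

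Cox17, which brings copper to cytochrome c oxidase, had -0.17 at μ-g and -0.27 at 2-g (mean -0.22, blocked adjusted p = 0.054). S100a8, a subunit of calprotectin, had -0.28 and -0.33 (mean -0.30, blocked 0.088), and Gzme, a granzyme, -0.36 and -0.66 (mean -0.51, blocked 0.142). The shifts of Ccdc28a and Olfr967 were nearly equal at the positions, at -0.24 and -0.23 and at -0.24 and -0.25. Ccnj, Tmem251 and the sialidase gene Neu1 had -0.18, -0.09 and -0.11 at μ-g and -0.34, -0.37 and -0.32 at 2-g. None of these 8 passed at adjusted p under 0.05 in either fit.

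**Figure D3:**
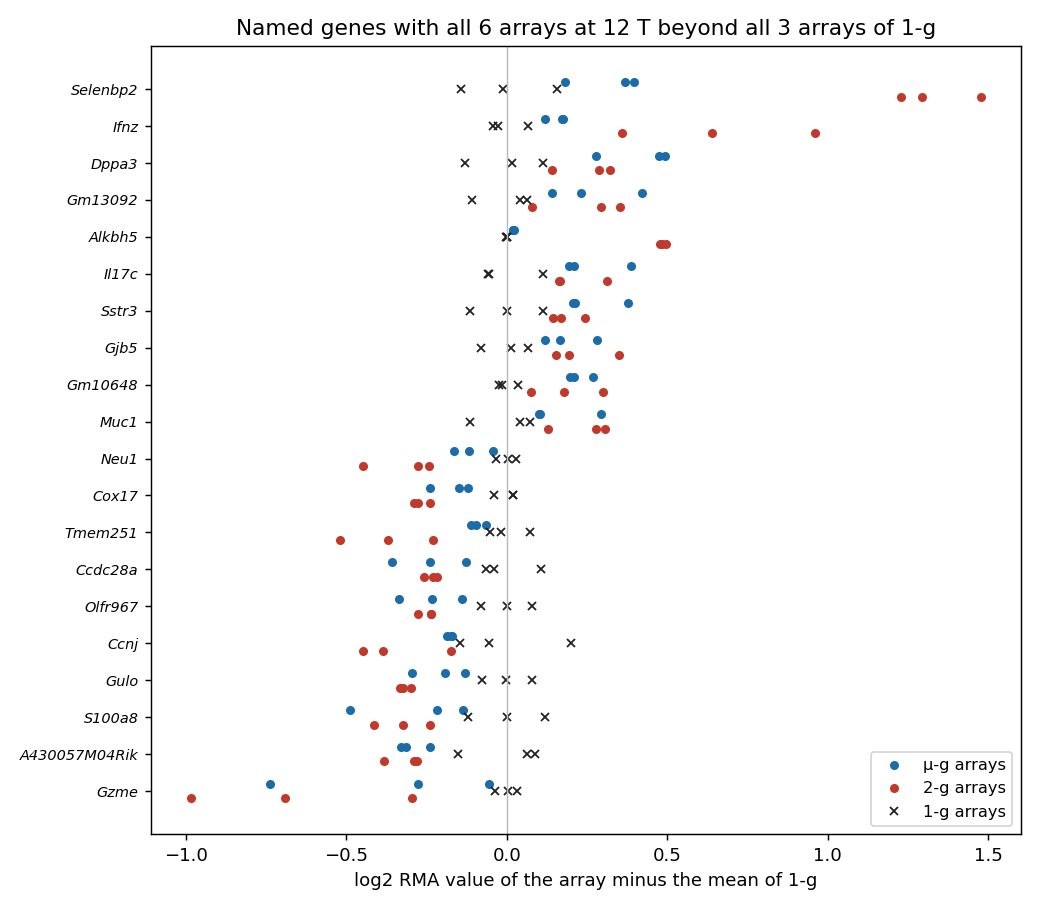
Each row is 1 of the 20 named genes whose 6 arrays at 12 T lie beyond the 3 arrays of 1-g, and the x axis gives the log2 RMA value of each array minus the 1-g mean. Dots are μ-g and 2-g arrays and crosses 1-g arrays. Selenbp2, Ifnz, Alkbh5, Tmem251 and Neu1 are carried mainly by 2-g, whereas most other genes shift by nearer amounts at both positions. The shared direction follows from how the genes were chosen.

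The 17 genes that were lower with the block also owed most of the difference to 2-g, with medians of -0.07 at μ-g and -0.55 at 2-g. Gpr84, a receptor for medium-chain fatty acids found on immune cells, had values of 8.57, 8.42 and 8.01 in μ-g, 7.40, 6.97 and 6.97 in 2-g and 8.71, 8.50 and 8.01 in 1-g. The μ-g arrays matched the 1-g arrays in range, and the 2-g arrays were below both. The mean was -0.68 (SE 0.19, limma adjusted p = 0.472, blocked 0.0353). Csf3, the growth factor of granulocytes, shows how the block acts: its values were 8.13, 8.02 and 8.64 in μ-g, 7.18, 7.05 and 7.68 in 2-g and 8.14, 8.04 and 8.61 in 1-g, with replicate 3 high in each group. Its mean was -0.48 (SE 0.19, limma adjusted p = 0.723, blocked 0.00136).

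Of 36 genes for inflammatory cytokines and chemokines, 0 were called without the block, 0 were higher and 3 lower with it (Gpr84, Csf3 and Tnf, beside 0.0853% of all genes lower), and 1 was higher and 10 were lower at an unadjusted p under 0.05 (2.53% and 3.72% of all genes), with a median of -0.11. Tnf, the cytokine tumour necrosis factor, differed by -0.28 (blocked adjusted p = 0.0298), from -0.02 at μ-g and -0.55 at 2-g. Ccl3, a chemokine, had 0.00 at μ-g and -0.97 at 2-g, with a mean of -0.49 that missed the blocked threshold (adjusted p = 0.0776). The member that was higher was Nos2, the inducible nitric oxide synthase, at 0.19 (limma adjusted p = 0.602). Levels summed over the 16 macrophage markers were 105.00 to 106.67 in μ-g, 104.17 to 104.76 in 2-g and 104.18 to 106.37 in 1-g on the log2 scale, and the macrophage gene Cd68 differed by -0.38 (blocked adjusted p = 0.06). The part of such cells in these values was not tested. The defining markers Adgre1, Itgam and Ptprc were among the 14 below the median of all genes, with mean log2 values of 5.46, 5.87 and 5.68 over the 12 arrays.

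Ctsk, the collagen-degrading cathepsin K, differed by -0.32 (blocked adjusted p = 0.0223), from -0.03 at μ-g and -0.61 at 2-g. It was 1 of the 6 osteoclast markers above the median of all genes, with Mmp9, Nfatc1, Itgb3, Clcn7 and Tcirg1. Gpnmb, a membrane glycoprotein, and Dpp7, a lysosomal peptidase, differed by -0.52 and -0.34, and Pparg, a regulator of fat cell formation, by -0.28. Genes of lipid handling among the 17 also included Lipg, a phospholipase, at -0.40, and Ormdl2, which restrains sphingolipid synthesis, at -0.27. The transporter gene Slc38a7, the transaminase gene Gpt2, the helicase gene Ddx39a, and Nat8f5, Mcpt8 and Zfp428 had -0.29, -0.23, -0.24, -0.43, -0.38 and -0.21.

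The lists of the matrix and of the clock each held 1 gene called with the block. Of 36 extracellular matrix genes, 0 were called, 1 was higher with the block (Col3a1, at 0.37, blocked adjusted p = 0.0298, beside 0.386% of all genes higher), and 10 were higher and 0 lower at an unadjusted p under 0.05 (2.53% and 3.72% of all genes), with a median of 0.07. Col1a1, the main collagen of bone, differed by 0.24, with 0.09 at μ-g and 0.38 at 2-g (blocked adjusted p = 0.125), and Adamts5, a protease of cartilage matrix, by 0.35 (blocked 0.0571). Of 21 clock and cryptochrome genes, Ciart, a repressor of the clock, was higher with the block at 0.51 (blocked adjusted p = 0.01), and 5 were higher and 0 lower at an unadjusted p under 0.05 (2.53% and 3.72% of all genes). Per1 differed by 0.19 (blocked 0.104).

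The lists of iron, channels, the cytoskeleton, antioxidants, p53, cell cycle, histones, ribosomes and olfactory receptors held no called gene in either fit. At an unadjusted p under 0.05 (limma), which 2.53% of all genes passed upward and 3.72% downward, 1 of 25 genes of iron uptake, storage and sensing was higher (4%) and 4 were lower (16%), among them the iron transporter gene Slc11a2 at -0.12, and of 20 genes of iron-sulfur cluster assembly 0 were. Of 40 calcium, TRP, Piezo and connexin channel genes 0 were higher and 1 was lower, of 35 genes of the actin cytoskeleton and focal adhesion 1 was higher and 0 lower, and of 26 tubulins and microtubule proteins 0 were either. The medians of these lists lay between -0.05 and 0.02. Of 25 antioxidant genes under NRF2, 0 were higher and 4 lower (16%), with Gclm, which makes glutathione, at -0.15. Of 27 targets of p53 and sestrins 1 was higher, Sesn3, with 0.22 at μ-g and 0.11 at 2-g, and 1 lower. Of 39 cell cycle genes, 33 histone genes and 65 ribosomal protein genes 0 were past even the unadjusted threshold, and of 1027 olfactory receptor genes 18 were higher and 19 lower.

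In the remaining lists the share past an unadjusted p of 0.05 in either direction (limma) stood beside 6.25% of all genes. A pair of genes, 1 higher and 1 lower, made 10.5% of 19 heat shock proteins, 6.67% of 30 genes of ER stress, 6.9% of 29 genes of the interferon response and 7.14% of 28 BCL2 family and caspase genes. There were 2 higher and 2 lower among 26 immediate early genes (15.4%), 3 and 1 among 25 YAP and mechanosensitive targets (16%), 1 and 3 among 23 genes of cholesterol synthesis (17.4%) and 1 and 4 among 35 genes of autophagy and lysosome (14.3%). With the block, Cryab of the heat shock list and Ptx3 of the YAP list were called higher, and Ctsk, also a lysosomal gene, lower. Among 51 small nucleolar RNAs 3 were higher and 0 lower, and among 296 microRNA genes 3 and 4, none with the block. Of the marker lists, 1 of 19 osteocyte and osteoblast markers was higher (Col1a1), 1 of 16 macrophage markers lower (Cd68), and 0 of 13 endothelial markers were either. Of 14 osteoclast markers 1 was higher (Ocstamp) and 1 lower (Ctsk), 14.3% together. Of 12 adipocyte markers 2 were higher (Retn and Dgat2) and 1 lower (Pparg), 25% together.

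**Figure D4:**
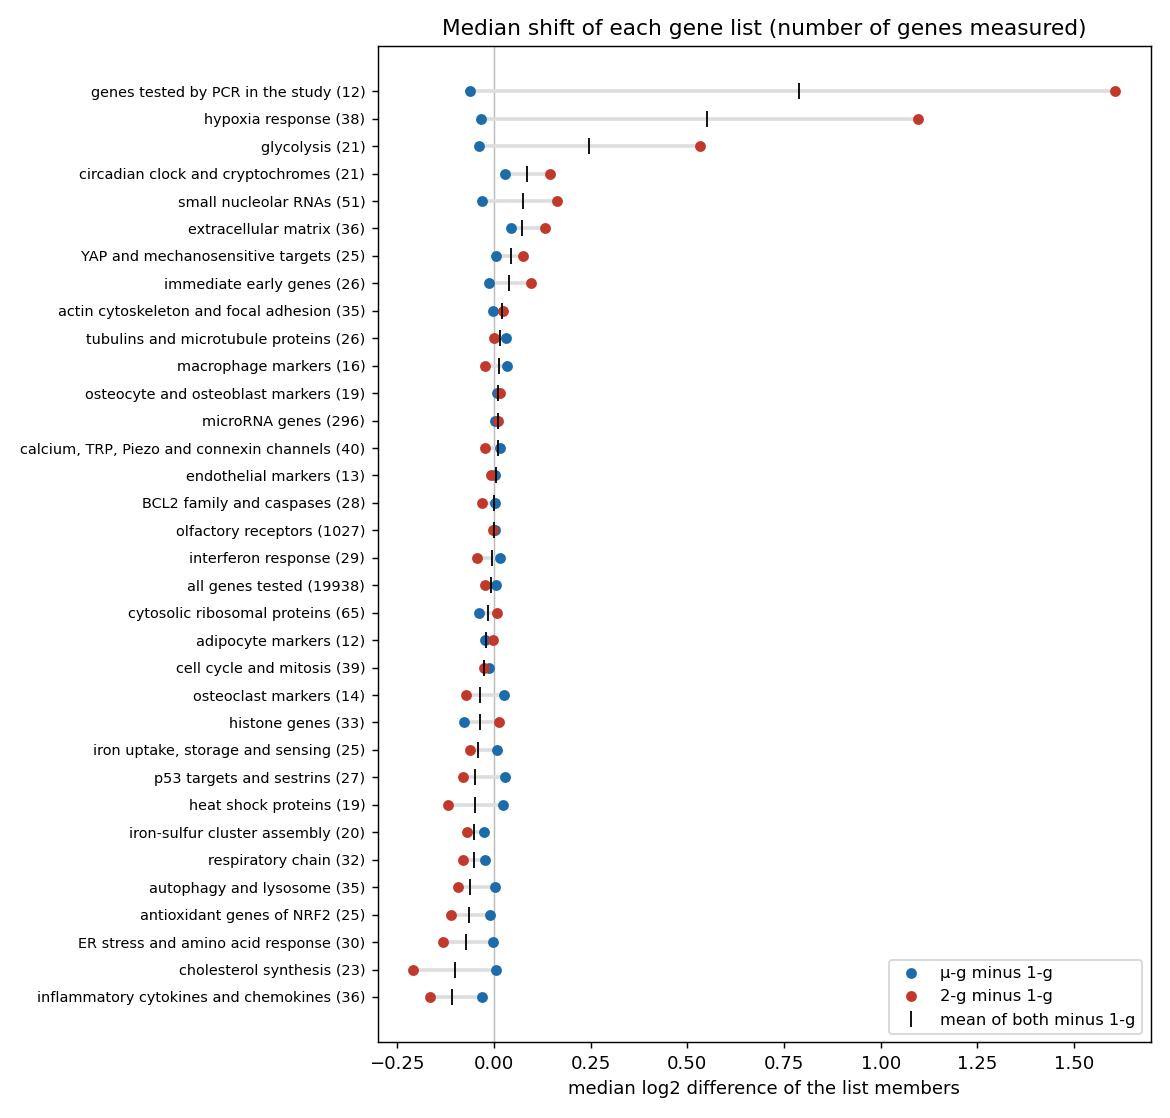
For each gene list (y axis, with the number of genes measured) the x axis gives the median log2 difference from 1-g at μ-g, at 2-g and for the mean of both, which is the tick between them. The lists of PCR-tested genes, of the low-oxygen response and of glycolysis extend to 1.61, 1.10 and 0.53 at 2-g with μ-g near 0, and the other lists stay within about 0.2 of 0.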

How the data were processed

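The authors hybridised RNA to Affymetrix Mouse Gene 1.0 ST arrays and normalised it by RMA (Robust Multi-Chip Average). The deposited values, on the log2 scale, were used as given for 28856 transcript clusters on 12 arrays. Intensity over background and array dates were not used here. Genes were named from the platform annotation, updated through RefSeq gene IDs (91 IDs without a match). Of the clusters, 21789 had 1 symbol, 1621 had several and 5446 had none or were not listed. For the 999 genes with several clusters the one with the highest mean was kept, giving 19938 genes.

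Groups were taken from the sample titles, and field strengths from the study's methods. limma 3.58.1 (R 4.3.3) fitted 1 mean per group over all 12 arrays, eBayes moderated the spread over all clusters, and p-values were two-sided and adjusted by Benjamini-Hochberg over the 19938 genes. The contrasts were the mean of μ-g and 2-g v.s. 1-g, each position v.s. 1-g, and μ-g v.s. 2-g. Tables were made with Python 3.11.15. The fit without the block was run on simulated arrays with equal shifts at both 12 T positions and independent noise. The measured shifts lay mostly at 2-g, and the blocked fit was not simulated, so that run does not bear on the calls reported here.

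The labels number the biological replicates 1 to 3 in every group, and do not say whether a number marks a shared run or day. Among the magnet groups, deviations from the group means correlated at 0.230 to 0.483 in the 9 pairs of like number and at -0.368 to 0.0951 in the 18 other pairs. The block also covers the control arrays. Pairs with a control array correlated at 0.0179 to 0.499 for like numbers and at -0.511 to 0.194 for others. Deviations cancel within each group, so a part of the gap between like and other pairs is built in. A fit with the number as a block is printed where it changes a result. This pairing comes from the values.

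The named genes were the called genes, up to 10 per direction with all 6 arrays at 12 T beyond the 3 of 1-g and the largest difference, members of 33 gene lists with the lowest p, the genes tested by PCR with Pdk1, and cell type markers. Genes called only with the block and genes on opposite sides of 1-g were named after their values were seen. The members and lists were chosen with earlier results of these data known. Alternatives are given at the end.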

Additional observations from a re-analysis of the deposited data

Results flagged for a closer look

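The positions averaged at 12 T were themselves compared, and the following named genes differed between them (limma, μ-g v.s. 2-g, adjusted p under 0.05, log2 difference of μ-g minus 2-g). All 4 genes called in the 12 T positions v.s. 1-g were among them: Stc1 at -2.30, Slc16a3 at -0.97, Gys1 at -1.12 and Mxi1 at -0.91. With the replicate block, the same held for 92 of the 94 genes called.

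Among named genes of mitochondria and pH control, chosen after their values were seen, the following were lower at μ-g, with Ndufa4l2 at -3.72, Ak4 at -3.39, Car9 at -3.14, Bnip3 at -2.69, Pdk1 at -2.51, Cox7a1 at -1.88, Fam162a at -1.76, Higd1a at -1.75 and Cox4i2 at -0.82. Of the 32 general genes of the respiratory chain, 1 was higher at μ-g and 0 were lower, beside 276 and 298 of all 19938 genes. Among hydroxylases and demethylases the differences were Egln1 at -1.60, P4ha1 at -1.27, Egln3 at -1.26, P4ha2 at -1.19, Kdm4b at -0.89, Kdm3a at -0.87, Plod2 at -0.76, Plod1 at -0.69 and Alkbh5 at -0.46. In sugar metabolism Pfkl had -1.61, Eno2 -1.54, Aldoc -1.40, Pgm1 -1.28, Pgk1 -0.92, Pygl -0.84, Slc2a1 -0.82, Aldoart1 -0.72 and Ldha -0.63. Signalling genes included Gpr35 at -2.09, Arrb1 at -1.85, Apln at -1.82, Adm at -1.39, Tnfsf9 at -0.96 and Ifnz at -0.50, and the selenium-binding proteins Selenbp1 and Selenbp2 stood at -1.63 and -1.02. The clock genes Ciart and Per1 had -1.13 and -0.32, the matrix genes Col3a1 and Adamts5 -0.67 and -0.52, and the microRNA gene Mir125b-1 -0.65.

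Of 36 genes for inflammatory cytokines and chemokines, 6 were higher at μ-g than at 2-g and 1 was lower, beside 276 and 298 of all 19938 genes. Among the 6 were Gpr84 at 1.22, Ccl3 at 0.97, Csf3 at 0.96 and Tnf at 0.53, and the lower gene was Il10, at -0.77. Other named genes higher at μ-g were Cd68 at 0.55, Lipg at 0.75, Epas1 at 0.73, Ctsk at 0.58, Pparg at 0.48, Dpp7 at 0.47, Ddx39a at 0.33, Gclm at 0.29, Slc11a2 at 0.28 and Zfp428 at 0.23.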

How the results depend on the processing

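The number of genes called in the 12 T positions v.s. 1-g, 4, moved most with the processing among the 4 counts of called genes. It was 39 with only the 9 arrays in the magnet, 12 among genes above the median level, 11 with arrays centred on their medians, 16 with a robust prior that follows intensity, 14 with the spread moderated over the genes alone (an alternative chosen after seeing the data), 3 with quantile normalization and 4 with the mean of all clusters of a gene. Pooling the 6 arrays at 12 T as 1 group called 0, since the difference between the positions then counts as spread (524 genes at an unadjusted p under 0.05, limma). Leaving out each array in turn gave 0 to 35. An unadjusted P under 0.05 with a fold change above 1.5 gave 26. Stc1 was called in 12 of 21 alternatives, Slc16a3 in 12, Gys1 in 11 and Mxi1 in 11, always in the same direction.

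With the replicate block 94 genes were called in the 12 T positions v.s. 1-g, 1510 in 2-g v.s. 1-g, 1831 between μ-g and 2-g, and 0 in μ-g v.s. 1-g. Leaving out replicate 2 or 3 from the blocked fit left 10 or 32 (chosen after seeing the data). The rule of P and fold change gave 130 genes in 2-g v.s. 1-g and 141 in μ-g v.s. 2-g. Leaving out each array gave 168 to 461 genes in 2-g v.s. 1-g, 219 to 670 between μ-g and 2-g, and 0 in μ-g v.s. 1-g each time. Of the single genes named, Mir125b-1 changed direction, from -0.055 to 0.19 as arrays were left out. Why the counts moved was not tested beyond these fits. The number of arrays limits the precision, and signal over background was not used here.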
